A study of Mus musculus with 2 samples.

Results

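The Hox cluster genes are the transcription factor genes of the 4 Hox clusters of the mouse, and 38 of them are reported here, among 34638 gene names on the array. Members were chosen by name alone: every probe for a mouse transcript whose gene name was Hox followed by a cluster letter and a number, whether or not it gave a signal. The 38 genes had 43 probes. RNA of EpiSC, epiblast stem cells, and of ELA-EpiSC, epiblast stem cells made by way of Epiblast-Like Aggregates (ELA), was read on 1 one-colour array per group. Both groups came from E14Tg2A, an embryonic stem (ES) cell line of strain 129/Ola, and both had FGF2 at 12 ng/mL and Activin A at 20 ng/mL in a defined medium whose supplements lacked vitamin A, the source of retinoic acid. EpiSC were made from ES cells directly, whereas ELA-EpiSC were made from the floating aggregates that ES cells form once serum and LIF are withdrawn. Each RNA was a pool of 3 experiments with 1 cell line, so that the arrays hold no replicate of a culture, no test between the groups was possible, and every difference below compares 2 arrays. A further label goes against the titles: the source name calls the EpiSC sample RNA bound to Argonaute and the ELA-EpiSC sample total RNA, both before differentiation. Groups follow the titles.

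Hox genes code for homeodomain proteins that give cells their position along the head-to-tail axis. Within a cluster they lie in the order in which they are switched on, from paralogue group 1 at the end expressed first and nearest to the head, to group 13 at the end expressed last and nearest to the tail. In the embryo the first of them are transcribed in the posterior primitive streak, under Wnt, FGF and retinoic acid signals and the caudal-type Cdx factors. In pluripotent cells Polycomb complexes hold the clusters silent. The pair of arrays addresses how alike primed pluripotent cells are when they are derived along both routes, and the Hox clusters are a readout of posterior identity in such cells.

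The probes are printed here because the members are homologous and a probe in a shared domain can also bind a relative. Each probe of the array is a stretch of 60 bases with the sequence of the mRNA strand. The Hoxc11 probe (mm9 chr15:102787022-102787081, plus strand) lies in the homeobox, and capitals mark part of the codons of the DNA recognition helix. The Hoxc12 probe (mm9 chr15:102768889-102768948, plus strand) begins with the end of those codons, in capitals. The Hoxa6 probe (mm9 chr6:52158194-52158253, minus strand) covers the codons, in capitals, of the short motif through which Hox proteins bind their cofactors. The codons were found by translating the probes, and for other probes the place in the transcript (coding part or untranslated region) was not determined here.
Hoxc11: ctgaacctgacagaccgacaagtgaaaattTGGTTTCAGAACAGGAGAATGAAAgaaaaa
Hoxc12: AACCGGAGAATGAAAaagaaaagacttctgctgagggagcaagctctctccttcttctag
Hoxa6: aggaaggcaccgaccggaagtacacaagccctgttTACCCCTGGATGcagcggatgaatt

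In the 41 Hox probes compared, the longest run of bases shared with a probe of another gene name, on either strand, had a median of 14 bases. The only run of 20 bases or more was in Hoxa3. One of its probes shared 40 bases, on the opposite strand, with the probe of the antisense transcript 5730446D14Rik, and neither was detected. Median GC content was 40.0% for Hox probes against 43.3% for all probes, and 36.7% for the 15 detected Hox probes against 40.8% for the others.

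Signal is given in intensity units, the mean pixel brightness of a spot. A probe counted as detected where the scanner software called its signal well above the local background, and a gene took its brightest detected probe. The median spot signal over all probes was 71.7 units in EpiSC and 79.1 units in ELA-EpiSC, the local background had a median of 26 and 25 units, and 0 spots were saturated. Differences are log2 ELA-EpiSC minus EpiSC after background correction with an offset of 50 and quantile normalization. The offset narrows the differences of dim probes, and raw signals are not normalized, so the log2 difference beside a pair of raw signals can differ from their ratio in size and, where it is close to 0, in sign. The only error that could be measured was that of replicate spots, as the SD of the difference over probes printed 10 times and of like brightness (50 nearest among 399), here called the spot SD. It ran from 0.075 to 0.11 for the Hox genes and covers neither labelling nor culture. The number of arrays limits the precision of every value.

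Fewer of the Hox genes reported were detected than of all genes on the array. On the EpiSC array 10 of the 38 were detected, where 72.3% of all gene names were. On the ELA-EpiSC array 13 were detected, against 71.4% of all gene names. Taking both arrays together, 14 Hox genes were detected on at least 1 array, against 74.6% of all gene names, and 9 were detected on both. By the software's more lenient test, signal significantly above background, the counts were 24 of 38 in EpiSC, against 85.8% of all gene names, and 22 in ELA-EpiSC, against 84.4%, so that the order of the arrays turned. Those 9 were Hoxa4, Hoxa6, Hoxa7, Hoxa9, Hoxb3, Hoxb6, Hoxc4, Hoxc13 and Hoxd13. Hoxb4, Hoxb9, Hoxc5 and Hoxc6 were detected in ELA-EpiSC only, and Hoxd8 in EpiSC only. The detected genes were 4 of 10 in the Hoxa cluster, 4 of 10 in Hoxb, 4 of 9 in Hoxc and 2 of 9 in Hoxd. By position they were 1 of 7 in paralogue groups 1 to 3, 9 of 15 in groups 4 to 8 and 4 of 16 in groups 9 to 13.

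**Figure D1:**
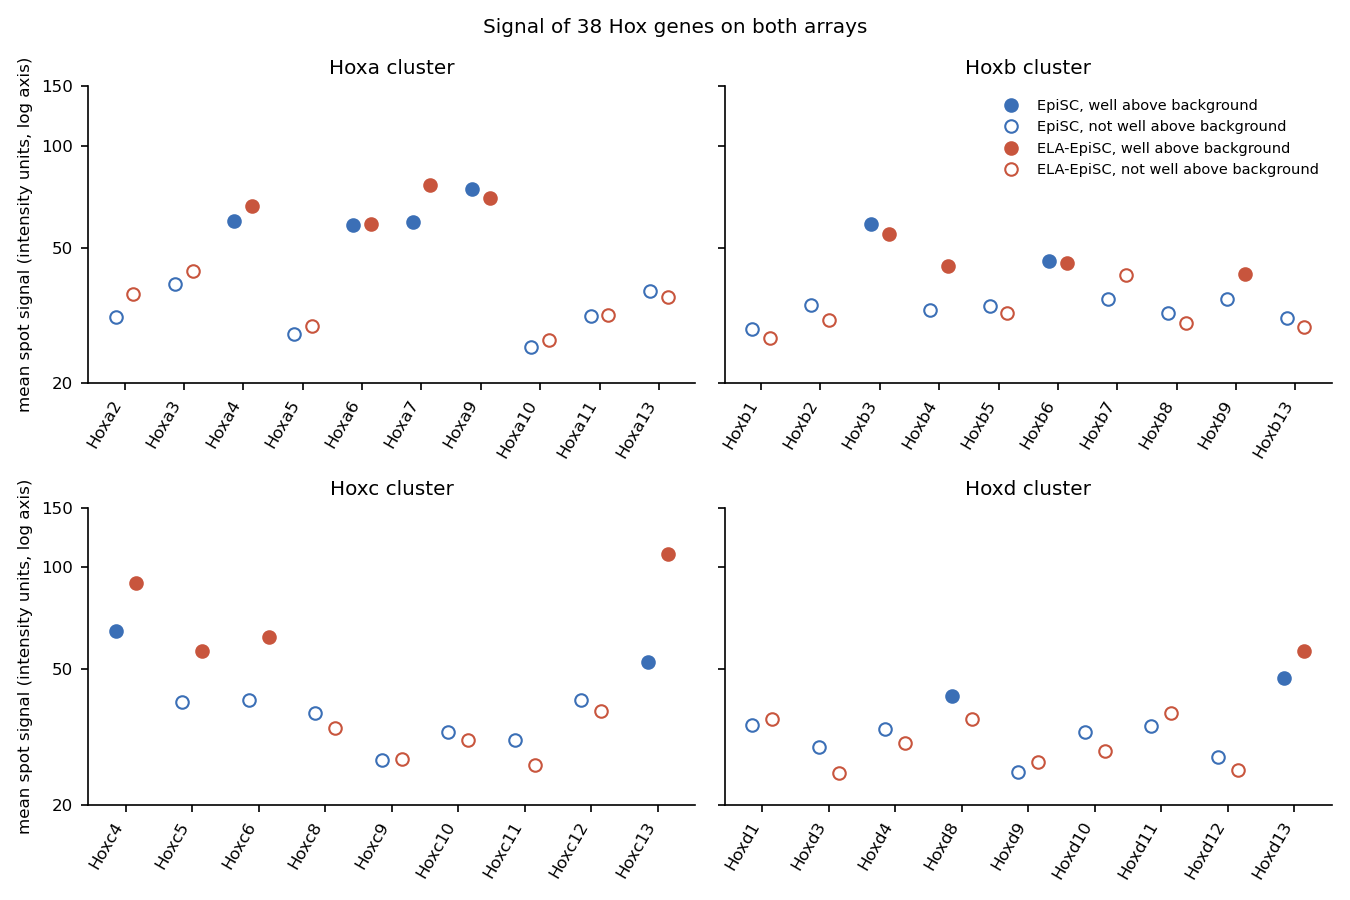
Mean spot signal of each of the 38 Hox genes in intensity units (log axis) on the EpiSC array (blue) and the ELA-EpiSC array (red), by cluster and paralogue number. Filled points are well above background and open points are not. Hoxc13 in ELA-EpiSC, at 110 units, lies apart from its own EpiSC value of 52.8 units, and 24 genes have open points on both arrays.

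The 24 genes detected on neither array were Hoxa2, Hoxa3, Hoxa5, Hoxa10, Hoxa11, Hoxa13, Hoxb1, Hoxb2, Hoxb5, Hoxb7, Hoxb8, Hoxb13, Hoxc8, Hoxc9, Hoxc10, Hoxc11, Hoxc12, Hoxd1, Hoxd3, Hoxd4, Hoxd9, Hoxd10, Hoxd11 and Hoxd12. Their signals ran from 24.9 to 40.6 units in EpiSC and from 24.8 to 42.8 units in ELA-EpiSC, over local backgrounds of 24 to 30.5 and 19 to 30 units. Levels below this were not measurable, so no direction is drawn for these genes. Of the 24, 16 differed between the arrays by less than 1 spot SD and 0 by 2 spot SD or more.

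Hoxa11 and Hoxb1 were each printed 10 times and show what such a signal is worth. Hoxa11 is a posterior gene of limb and reproductive tract. Its spots ran from 28.3 to 33.5 units with a median of 31.7 in EpiSC (9 spots, 1 left out as an outlier) and from 27.8 to 36.4 units with a median of 32.0 in ELA-EpiSC (10 spots). Hoxb1 marks the fourth rhombomere of the hindbrain and answers directly to retinoic acid. Its spots ran from 26.7 to 32.5 units with a median of 29.0 in EpiSC and from 23.5 to 30.8 units with a median of 27.2 in ELA-EpiSC. The spots of both arrays overlapped for either gene, and 0 spots of either gene were well above background. The mean difference was 0.015 ± 0.063 (SD, 9 spot pairs) for Hoxa11 and 0.026 ± 0.078 (SD, 10 spot pairs) for Hoxb1.

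**Figure D2:**
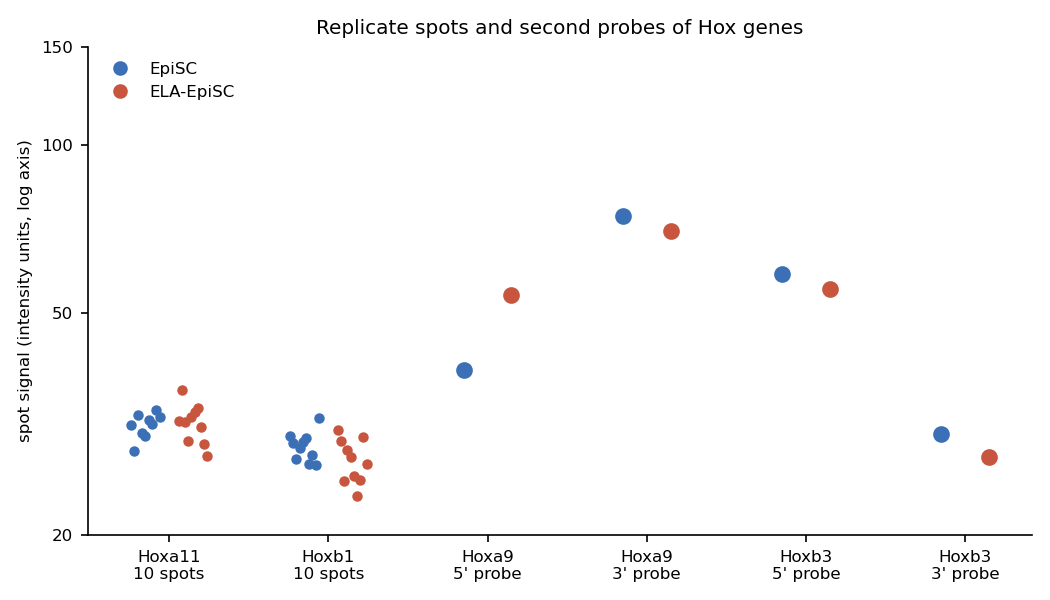
Spot signal in intensity units (log axis) on the EpiSC (blue) and ELA-EpiSC (red) arrays for the 10 replicate spots of Hoxa11 and of Hoxb1, each point a spot, and for both probes of Hoxa9 and of Hoxb3, each point a probe. The spots of Hoxa11 and Hoxb1 overlap between the arrays, and the probes of Hoxa9 differ in direction, from 39.6 to 53.9 units nearer the 5' end and from 74.5 to 70.2 units nearer the 3' end.

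Genes were counted past a log2 difference of 1 in either direction where their mean log2 was at least 7.5, sizes taken from the methods of the study. Among all 16649 genes that reached it, 4.54% were higher in ELA-EpiSC past 1 and 4.46% were higher in EpiSC. None of the 38 Hox genes reached this mean, 0 in number under each alternative setting too, so none could be counted in either direction.

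Without a minimum mean, a difference can be read against the spot SD. Past 2 spot SD, 5 of the 14 detected Hox genes were higher in ELA-EpiSC, where 25.9% of all detected genes were, and 1 was higher in EpiSC, where 26.1% were. The 6 genes were Hoxb4, Hoxb9, Hoxc5, Hoxc6 and Hoxc13, all higher in ELA-EpiSC, and Hoxd8, higher in EpiSC. Hoxb4, Hoxb9, Hoxc5, Hoxc6 and Hoxd8 were counted as detected through 1 array only, so a difference in their favour there was built into the count. The median difference over the 14 genes was 0.15, against -0.0058 over all detected genes, but it was 0.044 over the genes detected on both arrays and 0.022 with no detection filter. Of the 9 genes detected on both arrays, 5 were higher in ELA-EpiSC.

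**Figure D3:**
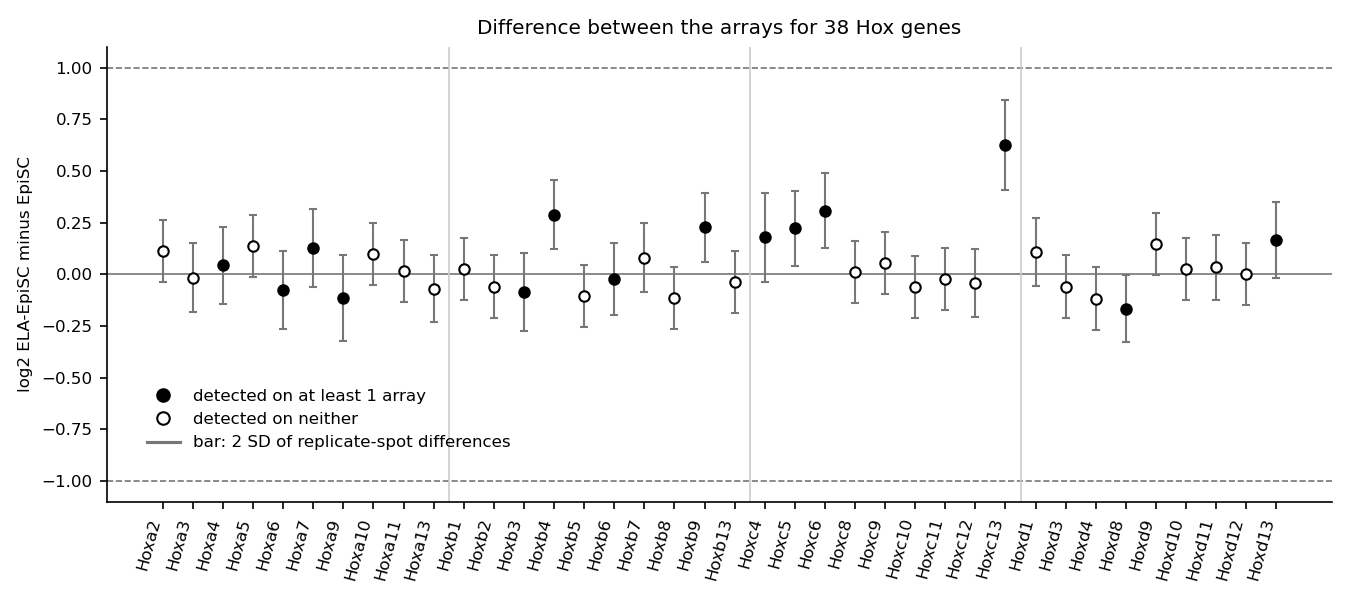
Log2 difference, ELA-EpiSC minus EpiSC, of the 38 Hox genes in order of cluster and paralogue number, with bars of 2 spot SD, filled where the gene was detected on at least 1 array. Dashed lines stand at 1 and -1. Hoxc13 lies at 0.63, and the others lie between -0.17 and 0.31.

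In the anterior paralogue groups the 1 detected gene reported was Hoxb3. Hoxb3, which works in hindbrain and pharyngeal arches, had 58.8 units in EpiSC and 55.1 units in ELA-EpiSC, and its log2 difference of -0.09 had a spot SD of 0.093, so the arrays did not differ beyond the spot error. The other Hoxb3 probe, nearer the 3' end, was detected on neither array, at 30.3 units in EpiSC and 27.7 units in ELA-EpiSC. Hoxa2, the gene of second-arch identity, had 31.4 and 36.5 units, Hoxa3 had 39.1 and 42.8 units, Hoxb2 had 34.0 and 30.6 units, Hoxd1 had 34.2 and 35.7 units and Hoxd3 had 29.6 and 24.8 units in EpiSC and ELA-EpiSC, none of them detected.

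In the central groups, whose genes pattern neck and trunk, the genes detected on both arrays differed by less than 2 spot SD. Hoxa4 had 60.2 units in EpiSC and 66.4 units in ELA-EpiSC (log2 difference 0.04). Hoxa6 had 58.3 and 58.8 units (-0.08). Hoxa7 had 59.6 and 76.7 units (0.13). The differences of these Hoxa genes were at most 1.36 times their spot SD, that of Hoxa7. Hoxb6 had 45.7 units in EpiSC and 45.1 units in ELA-EpiSC, a log2 difference of -0.02, and Hoxc4 had 65.0 and 90.1 units, a log2 difference of 0.18 that is 1.67 times its spot SD.

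Hoxb4, a gene of the neck region that also acts in blood progenitors, had 32.9 units in EpiSC, not well above background, and 44.2 units in ELA-EpiSC (mm9 chr11:96182885-96182944). Its log2 difference was 0.29, or 1.22-fold higher in ELA-EpiSC. The lowest log2 value called detected on the EpiSC array, 5.89, lay under its own value of 6.05 there. The fold is thus that of the values used and no lower bound, which also holds for Hoxc5, Hoxc6 and Hoxb9. Hoxc5 had 40.0 units in EpiSC, not well above background, and 56.5 units in ELA-EpiSC (log2 difference 0.22, 1.17-fold higher). Hoxc6, its neighbour at mm9 chr15:102842243-102842302 and a gene of thoracic identity, had 40.6 and 62.5 units in the same order (log2 difference 0.31, 1.24-fold higher). Hoxb4, Hoxc5 and Hoxc6 were detected through the ELA-EpiSC array alone, so their direction comes with the detection rule. The differences of the Hoxc genes detected on neither array ran from -0.06 to 0.06. Hoxd8 was detected through the EpiSC array alone, with 41.9 units in EpiSC and 35.9 units in ELA-EpiSC, not well above background (log2 difference -0.17). The lowest log2 value called detected on the ELA-EpiSC array, 6.11, gives no bound for Hoxd8 either. Undetected genes reached higher values there, such as Hoxd1 at 6.21, above the 6.18 of Hoxd8 in EpiSC.

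Among the posterior groups, Hoxc13, the last gene of its cluster and known for hair and nail growth, had 52.8 units in EpiSC and 110 units in ELA-EpiSC over a local background of 25 units on both (mm9 chr15:102759058-102759117). Its signal above background, before normalization, was 3.05 times as high in ELA-EpiSC, read from 1 probe with 1 spot on each array. On the log2 scale it went from 6.46 to 7.08, a difference of 0.63 or 5.80 times the spot SD, which 7.63% of all detected genes reached in that direction. Hoxd13, the digit gene at the corresponding end of the Hoxd cluster, had 47.2 and 56.8 units (log2 difference 0.17, 1.82 times the spot SD). Hoxb9 had 35.4 units in EpiSC, not well above background, and 41.9 units in ELA-EpiSC (log2 difference 0.23, 1.17-fold higher). The probes of Hoxa9 disagreed in sign. Its brighter probe had 74.5 units in EpiSC and 70.2 units in ELA-EpiSC (log2 difference -0.11), while the other had 39.6 units, not well above background, and 53.9 units (0.26). Hoxa13 and Hoxb13, of the same last group as Hoxc13 and Hoxd13, were detected on neither array.

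Scaling to spike-in RNA or to the 75th percentile shifted all genes together. Spike-in RNA in the arrays gave a median difference of 0.51 over all genes in place of -0.0058, and scaling to the 75th percentile gave -0.18. Taken as such, scaling to the 75th percentile turned the sign of 7 of the 14 detected Hox genes and spike-in RNA that of 5. Over all alternatives 12 of the 14 changed sign, and Hoxc13 and Hoxc6 kept it. Differences are given here relative to the median of all genes. Both scalings give the same values there by construction, as each shifts an array by 1 constant. On that footing 13 of the 14 detected Hox genes kept the sign they had after quantile normalization, and Hoxa4 turned, from 0.050 to -0.028. Hoxc13 was at 0.57, Hoxc6 at 0.18, Hoxb4 at 0.13, Hoxc4 at 0.13, Hoxc5 at 0.098 and Hoxb9 at 0.065, while Hoxd8 was at -0.34. The 14 Hox genes had a median of 0.057. Among the other alternatives, Hoxa4 and Hoxb6 turned sign with the median pixel signal and with the deposited values, and Hoxa9 with the mean of its probes.

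**Figure D4:**
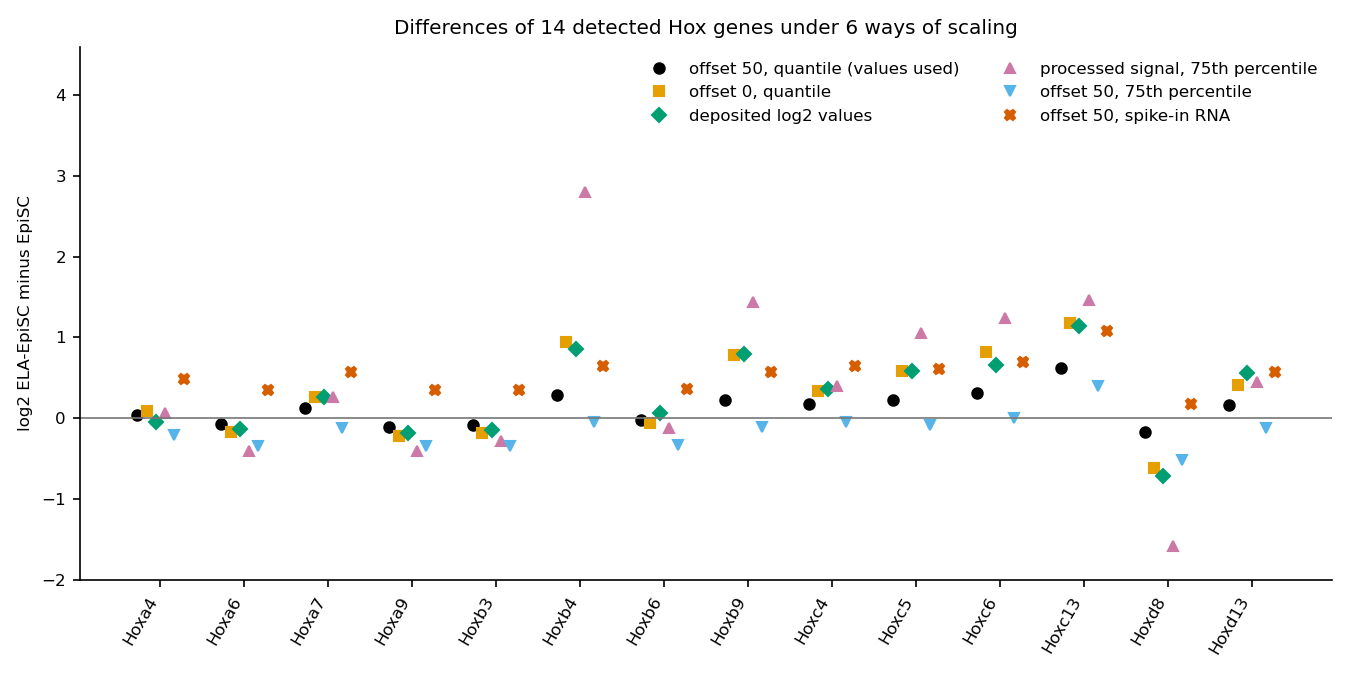
Log2 difference, ELA-EpiSC minus EpiSC, of the 14 detected Hox genes under 6 combinations of background correction and scaling (symbols), not set relative to the median of all genes. Hoxc13 lies between 0.39 and 1.46 under all of them, whereas Hoxb4, detected in ELA-EpiSC only, ranges from -0.04 to 2.80.

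Transcripts that are not Hox genes but lie between the outermost Hox probes of a cluster had 38 probes, 18 of them on the strand opposite to the Hox genes. On the EpiSC array 12 of the 38 were detected, where 65.8% of all probes were, and on the ELA-EpiSC array 14, where 65.0% were. In all, 15 were detected on at least 1 array, 11 of them on both, and 0 passed a difference of 1 in either direction. Most of the 15 had a mean log2 under 7.5, where the offset narrows differences, so the 0 says little about them. Their differences ran from -0.22 to 0.29. Haglr (6720416L17Rik on the array), a long RNA antisense to the Hoxd cluster, had 350 units in EpiSC and 451 units in ELA-EpiSC (log2 8.71 and 8.79). Hoxa11os, antisense to Hoxa11, had 69.5 and 80.6 units (log2 6.65 and 6.71), and Hoxa11 itself was not detected. Hoxb5os had 40.6 units in EpiSC and 38.0 units, not well above background, in ELA-EpiSC. Hottip and Hoxd3os1 were detected on neither array. Of 5 probes named for Hotair, an RNA antisense to the Hoxc cluster, 1 was detected, at 100.0 units in EpiSC and 103 units in ELA-EpiSC. An intergenic transcript on the minus strand between Hoxb13 and Hoxb9 had 4 probes. One at mm9 chr11:96114981-96115040 had 2789 and 3636 units, one at mm9 chr11:96114887-96114946 had 411 and 425 units, and the remaining 2 were not detected. Some plus-strand probes of the same stretch were detected as well. The brightest of the 38 probes had no gene name and lay outside that transcript, on the plus strand between Hoxb13 and Hoxb9 (mm9 chr11:96110121-96110180). It had 145323 units in EpiSC and 120968 units in ELA-EpiSC. Shared runs of bases were searched for Hox probes only, so whether this signal comes from the cluster was not tested.

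Hox proteins bind DNA with TALE homeodomain cofactors. All 8 cofactor genes reported were detected on both arrays and 0 passed a difference of 1, with a median difference of 0.17 and a range from -0.26 to 0.72. Meis1 had log2 values of 6.74 in EpiSC and 6.82 in ELA-EpiSC. The widest difference was that of Pknox2, 8.26 in EpiSC and 8.97 in ELA-EpiSC.

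The Cdx factors, direct activators of central and posterior Hox genes, and the related ParaHox genes were 4 of 6 detected, all with a mean log2 under 7.5, so none could be counted past 1. Cdx1 had log2 values of 6.81 in EpiSC and 7.08 in ELA-EpiSC, and Cdx2 had 6.27 and 6.47. Cdx4 and Gsx2 were detected on neither array. The list median was 0.13.

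Signals and genes of the caudal epiblast moved in both directions. Of 13 listed, 12 were detected, 4 were higher in ELA-EpiSC past 1 and 3 were higher in EpiSC, with a median difference of 0.28. T, the Brachyury gene of the primitive streak, had log2 values of 11.18 in EpiSC and 13.66 in ELA-EpiSC (difference 2.48). The ligand genes Wnt3 (10.04 and 11.46), Wnt8a (7.66 and 8.74) and Fgf8 (13.68 and 14.99) were also higher in ELA-EpiSC, by 1.42, 1.07 and 1.31. Wnt5a (10.30 and 8.86), Fgf4 (11.04 and 9.62) and Evx1 (11.16 and 10.14) were lower, by differences of -1.44, -1.41 and -1.02. Wnt3a was detected on neither array. Evx1 is the homeobox gene next to Hoxa13, at the posterior end of the Hoxa cluster.

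Retinoic acid induces the anterior Hox genes. Of 18 genes of its pathway 16 were detected on both arrays, 2 were higher in ELA-EpiSC past 1 and 3 were higher in EpiSC, with a median difference of 0.04. Rdh10, which makes retinaldehyde, had log2 values of 7.90 in EpiSC and 9.73 in ELA-EpiSC (difference 1.83). Dhrs3, which turns retinaldehyde back to retinol, had 10.62 and 12.23 (difference 1.61). Rarb, a receptor gene that is itself a target of retinoic acid, had 11.26 and 7.99 (difference -3.28). The retinol carrier receptor gene Stra6 (9.23 and 7.97) and the binding protein gene Crabp2 (11.49 and 10.47) were lower in ELA-EpiSC by differences of -1.26 and -1.02. Aldh1a2, the main retinoic acid synthase gene of the early embryo, had 6.44 and 7.34, under the minimum mean. The degrading enzyme gene Cyp26a1 had 14.72 and 14.48.

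Polycomb and Trithorax complexes hold the Hox clusters silent or active. All 27 Polycomb genes reported were detected on both arrays, with a median difference of 0.06. Among the 25 with a mean of at least 7.5, 0 passed 1 in either direction. Cbx8, with a mean under 7.5, had 7.95 and 6.83. The catalytic subunit gene Ezh2 had 12.58 in EpiSC and 12.31 in ELA-EpiSC, and Suz12 had 12.27 and 12.21. Of 11 Trithorax group and H3K27 demethylase genes, all detected, 0 passed 1 and the median difference was 0.06. Kmt2a, whose product keeps Hox genes active, had 6.55 and 6.77.

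**Figure D5:**
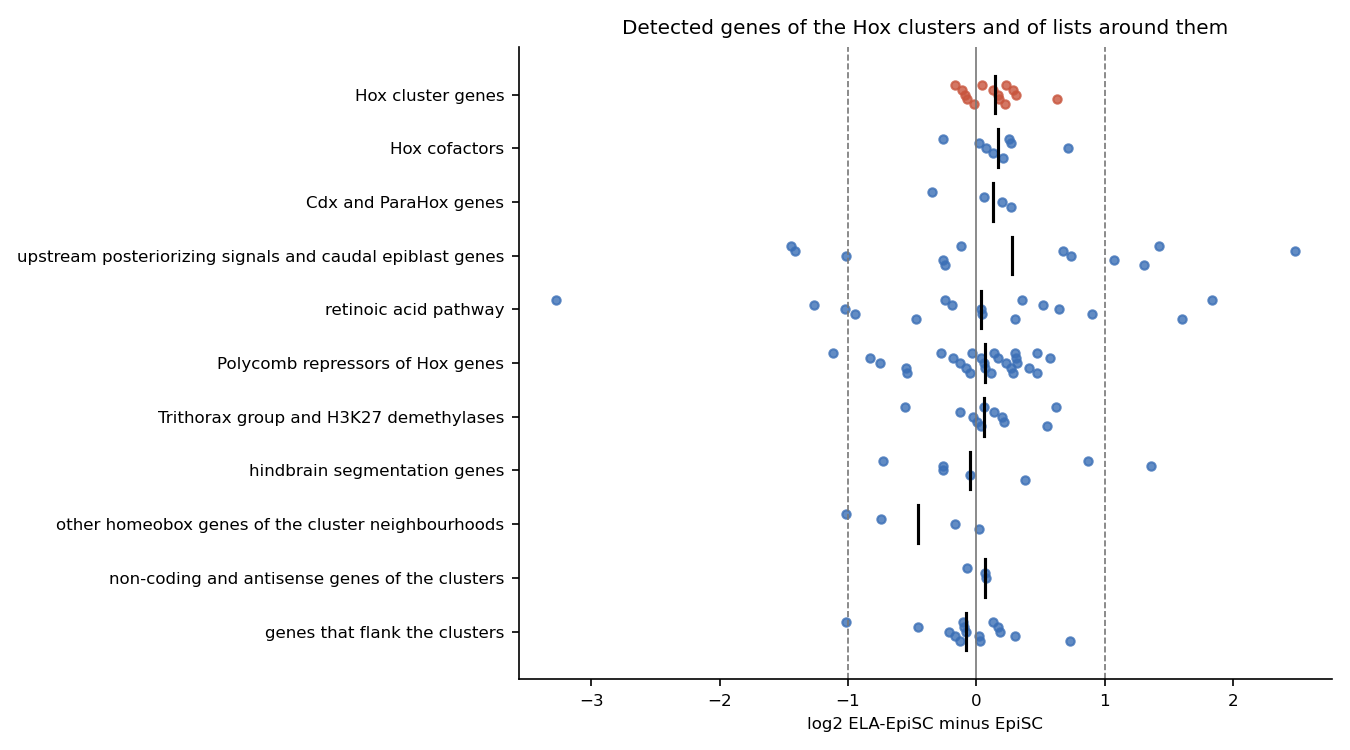
Log2 difference, ELA-EpiSC minus EpiSC, of each detected gene (points) of the Hox clusters (red) and of 10 lists of genes around them (blue), with the list median as a black bar and dashed lines at 1 and -1. Cofactors and Trithorax genes lie within 1, while the caudal epiblast and retinoic acid lists spread to 2.48 and -3.28.

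All 15 genes on the array that flank the clusters were detected, with a median difference of -0.08, and Evx1 was the 1 gene among them past 1. Of 4 detected homeobox genes in the wider neighbourhood, Evx2, beside Hoxd13, had 9.37 in EpiSC and 9.20 in ELA-EpiSC. The 7 hindbrain genes reported were all detected on at least 1 array with a median difference of -0.05. Egr2, a gene of hindbrain segments, was higher in ELA-EpiSC (8.41 and 9.77, difference 1.36).

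Markers of epiblast and pluripotent cells were 10 in number, and no array of ES cells was part of the comparison. All 10 were detected on both arrays, among them Pou5f1 (14.27 in EpiSC and 14.46 in ELA-EpiSC) and Fgf5 (15.19 and 15.34), and 2 passed 1, Zic2 (difference 1.68) and Pou3f1 (1.46), both higher in ELA-EpiSC. Dnmt3b (-0.84) and Sox2 (-0.27) were lower in ELA-EpiSC and the remaining markers were higher. The summed signals were 332010 in EpiSC and 312301 in ELA-EpiSC. The fall in the sum came mainly from Dnmt3b (17.07 and 16.24), the brightest of the 10, and the median difference of the markers was 0.21. In bulk RNA, fewer cells of a type and less RNA per cell cannot be told apart. Markers of other cell types also differed between the arrays. Of 12 fibroblast and mesenchyme markers 11 were detected, Lum was not, and Col1a1 (difference 3.72), Twist2 (2.92) and Pdgfra (1.77) were higher in ELA-EpiSC past 1. Dcn (-0.33) was lower in ELA-EpiSC. The remaining detected ones were higher, but Col1a2 (0.08) and Thy1 (0.05) by less than 1 spot SD. The summed signal of the 12 on the normalized scale was 4846 in EpiSC and 8328 in ELA-EpiSC. Of 6 neural crest markers 5 were detected and Tfap2b was not. Snai2 (1.49) and Ets1 (1.08) were higher in ELA-EpiSC past 1, and the summed signals were 2764 and 5008. Most of the rise in this sum came from Foxd3 (10.92 and 11.77, difference 0.85). Sox10 (0.56) was also higher, whereas Tfap2a (-0.36) was lower. Of 8 visceral endoderm markers all were detected in EpiSC and 6 in ELA-EpiSC, where Ttr and Apoa1 were not. Hnf4a (-5.12), Ttr (-3.47), Amn (-2.75) and Gata4 (-2.39) were higher in EpiSC past 1, with summed signals of 21576 and 6907. Apoa1 (-2.02, mean under 7.5) and Gata6 (-0.57) were also lower in ELA-EpiSC, whereas Afp (0.21) and Cubn (0.11) were higher.

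Of 8 neural progenitor markers 6 were detected, Pax6 and Olig2 were not, and Nes (2.11) was higher in ELA-EpiSC, with summed signals of 16283 and 34148. Most of the rise in the sum came from Nes. Neurog2 (0.31) and Sox3 (0.23) were also higher, whereas Hes5 (-0.95), Sox1 (-0.09) and Fabp7 (-0.01) were not. Of 7 neuron markers Isl1 (-4.17) was higher in EpiSC past 1, with summed signals of 16194 and 15908. Elavl3 (-0.68) and Elavl4 (-0.17) were also lower in ELA-EpiSC, whereas Tubb3 (0.72), Map2 (0.60), Dcx (0.34) and Stmn2 (0.07) were higher. Of 6 definitive endoderm markers Hhex (-1.73) and Cxcr4 (-1.24) were higher in EpiSC past 1, with summed signals of 126902 and 109903. Sox17 (-0.93) and Foxa2 (-0.44) were also lower in ELA-EpiSC, whereas Gsc (0.54) and Cer1 (0.01) were not. Of 8 mesoderm markers 7 were detected, Meox1 was not, and 0 passed 1 with the minimum mean, with summed signals of 8616 and 6578. The part of these markers in the Hox differences was not tested.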

How the data were processed

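RNA of 1 EpiSC and 1 ELA-EpiSC sample was hybridized, after Cy3 labelling of 50 ng per the labels, to Agilent arrays of 60-base probes. Spot intensity in the deposited scanner files is linear and was extracted by the authors with Feature Extraction 10.7.3.1 per the file headers (9.1 per the labels), with mm9 probe coordinates. A deposited log2 table, made by the authors with background correction and quantile normalization in limma, served as an alternative. It was matched to the scanner files by probe name.

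Starting with mean signal and median background per spot, normexp with an offset of 50, removal of control and outlier spots, quantile normalization and log2 were applied with limma 3.58.1 in R 4.3.3, and spots of a probe were averaged. Detection needed at least 0.5 of the spots well above background. This chain was tested on simulated data, with changes set in probes well above background on both arrays. The size of a change had to be recovered for bright probes only. The test therefore says nothing about the size of differences at dim probes such as those of the Hox genes. Tables were made with Python 3.11.15. Some genes and sequences are not reported here and enter no count of members or lists. Every other Hox gene detected on at least 1 array is given with its values, other genes where they passed 1 in a list or are markers. Quantile normalization removes shifts shared by all genes. Gene names are those of the array, with synonyms from a RefSeq table (GRCm38.p6) used for names only. Members, lists and alternatives were chosen with earlier results of these data known.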

Additional observations from a re-analysis of the deposited data

How the results depend on the processing

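With 1 array per group, no replicate could be left out and no alternative tests the difference between the groups. No paired analysis was possible because there is a single array for either group. Detection depended on its definition: by the scanner software's test for signal significantly above background, 24 of the 38 Hox genes were detected in EpiSC and 22 in ELA-EpiSC, against 85.8% and 84.4% of all gene names. The counts of Hox genes past 1 were fixed at 0 by the minimum mean, which no gene of the 38 reached under any alternative, and say nothing about stability. Without a minimum, the count was also 0 for the values used, but Hoxc13 was at 1.18 with an offset of 0, 1.14 in the deposited values and 1.09 after scaling to spike-in RNA, and with the processed signal Hoxb4 was at 2.80, Hoxc13 at 1.46, Hoxb9 at 1.44, Hoxc6 at 1.24, Hoxc5 at 1.06 and Hoxd8 at -1.58. The median difference of the detected Hox genes, 0.15, was 0.30 with an offset of 0, 0.33 with the processed signal, 0.31 with the deposited values, -0.12 after scaling to the 75th percentile, 0.57 after scaling to spike-in RNA, 0.044 with detection on both arrays, 0.023 with the other detection test and 0.022 with no detection filter. Both scalings shift all genes together, and relative to the median of all genes they gave 0.057. The detection settings add or remove genes. For the remaining settings the cause was not tested. Signals near the local background limit every Hox value given.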
